A study of Mus musculus with 8 samples.

Results

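The 31 genes described here are the enzymes of glycolysis and the genes of the cell's response to low oxygen, chosen by symbol from the tables of normalised gene counts. All 31 were listed among the 16902 genes shared by both tables. Of these, 14 encode glycolytic enzymes, including the regulator Pfkfb3. The other 17 are the hypoxia-inducible factor gene Hif1a, genes of its regulators and further genes listed as HIF targets. Each of the 31 had a mean normalised count of at least 10 in one of the tables and so was among the 14614 genes tested. Expression was measured by RNA sequencing of poly(A) RNA from back-skin epidermis of CD1 mice, an outbred strain, after the dermis had been removed with the enzyme dispase.

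The study held 8 libraries in 4 groups, each of 1 female and 1 male. Untreated skin came from Ovol1 +/- mice, the controls, and from Ovol1 -/- mice. Skin treated with IMQ, the abbreviation commonly used for imiquimod, a TLR7 agonist that inflames skin, came from Ovol1 +/+ mice, the controls, and from Ovol1 -/- mice. By these labels the control genotype differed between untreated and treated skin, although the deposited column headers call the controls WT in both. Ovol1 encodes a zinc-finger transcription factor of epithelia; on the dose, the duration, the ages and the kind of knockout allele the labels say nothing. Ovol1 itself was listed at 16629 and 14582 normalised counts in the untreated controls and 27433 and 26601 in the untreated -/- libraries, and at 7635 and 9556 against 13457 and 13077 under IMQ. The mRNA was thus not lower in the -/- libraries, one value per gene cannot show which exons were read, and these tables do not check the genotype labels. The -/- libraries are called labelled knockouts below.

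Glycolysis splits glucose into pyruvate, and lactate dehydrogenase then turns pyruvate into lactate so that the pathway can go on without oxygen. HIF1A is made continuously and, where oxygen is present, is marked by prolyl hydroxylases such as EGLN1 for destruction, so that its activity is set mostly at the protein and not at the RNA. When it accumulates it pairs with ARNT, binds short DNA elements with the core ACGTG or GCGTG, and switches on genes of glucose uptake, glycolysis, blood vessel growth and mitochondrial turnover. Epidermis has no blood vessels of its own, is mildly hypoxic, and is known for making much lactate.

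Because that core is the DNA feature that would link the 31 genes to HIF, the promoters were read for it in RefSeq's table for GRCm38.p6, which held a start site for 29 of them. The 250 bases before a start held ACGTG or GCGTG on either strand in 27 of the 29 genes, 93.1%, while 58.8% of the 11458 tested genes with an entry had one. By list, 12 of 14 glycolytic enzymes (85.7%) and 15 of 15 genes of the HIF list (100%) had one. A gene with several annotated starts was counted if any of its windows held a match. Vegfa, Mxi1, Pdk1, Hk1, Aldoa and Pkm each also had a window without one, the most upstream window in all but Pdk1. By window, 33 of 41 (80.5%) held a match, against 53.2% of the windows of tested genes. ACGTG alone was found in 69.0% of the 29 genes against 24.0% of tested genes, and GCGTG alone in 65.5% against 47.8%. The E-box CACGTG contains ACGTG on each strand, is counted once on each, and was found in 17.2% against 9.43%. The windows of the 31 genes had a median GC content of 64.0% against 59.2%, and its part in these shares was not tested. Many of the genes are well-known HIF targets, so the motif describes them and does not test them.

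The 4 promoters below are shown because their genes carry the results that follow, Ldha and Ddit4 for the response to IMQ and Bnip3 and Tpi1 for the difference between genotypes. Each runs 5′ to 3′ on the strand of its gene and ends at the base before the annotated start, and the capitals mark every ACGTG or GCGTG on either strand. Ldha, lactate dehydrogenase A, has 2 annotated starts, and the window shown is the upstream one, at chr7:46845554-46845803 on the plus strand. Bnip3 lies at chr7:138909507-138909756 on the minus strand. Ddit4 lies at chr10:59951771-59952020 on the minus strand. Tpi1, triosephosphate isomerase, lies at chr6:124814159-124814408 on the minus strand.
Ldha: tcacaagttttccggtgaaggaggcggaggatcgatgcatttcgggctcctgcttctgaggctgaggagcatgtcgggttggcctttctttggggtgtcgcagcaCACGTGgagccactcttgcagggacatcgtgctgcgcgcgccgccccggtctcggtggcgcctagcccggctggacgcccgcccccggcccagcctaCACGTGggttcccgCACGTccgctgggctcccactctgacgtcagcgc
Bnip3: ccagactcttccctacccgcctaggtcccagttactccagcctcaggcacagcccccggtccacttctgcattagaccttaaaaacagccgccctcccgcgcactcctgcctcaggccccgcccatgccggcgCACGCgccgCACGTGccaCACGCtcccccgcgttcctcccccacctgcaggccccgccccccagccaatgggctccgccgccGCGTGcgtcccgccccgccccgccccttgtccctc
Ddit4: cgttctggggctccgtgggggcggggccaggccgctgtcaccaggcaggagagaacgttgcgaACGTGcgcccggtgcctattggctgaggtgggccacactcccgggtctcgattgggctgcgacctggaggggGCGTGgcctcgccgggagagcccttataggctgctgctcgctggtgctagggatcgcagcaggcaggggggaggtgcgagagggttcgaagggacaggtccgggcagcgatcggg
Tpi1: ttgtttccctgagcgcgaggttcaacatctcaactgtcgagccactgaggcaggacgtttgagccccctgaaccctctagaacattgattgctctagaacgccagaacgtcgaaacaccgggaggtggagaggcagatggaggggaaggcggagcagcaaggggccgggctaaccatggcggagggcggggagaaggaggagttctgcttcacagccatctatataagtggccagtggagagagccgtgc
The Ldha window shown held 5 matches, from 2 CACGTG boxes read on both strands and a further CACGT beginning 34 bases before the start. The window of the other Ldha start, at chr7:46846832-46847081, held 1 GCGTG and no ACGTG. The Bnip3 window also held 5, the nearest beginning 35 bases before the start, and the Ddit4 window held 2. The Tpi1 window held none, and among the 29 genes with an entry Gpi1, glucose-6-phosphate isomerase, was the other gene without one. A match is only a run of letters, and no match says nothing about the factor outside this window.

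The libraries held 28600596 to 43080052 reads in listed genes, and 100% of the deposited values came out as whole reads within 0.001 read once the scaling was undone. Keratinocyte markers dominated every library: the basal genes, such as Krt5 and Krt14, summed to between 466633 and 769007 normalised counts and the suprabasal genes, such as Krt1 and Krt10, to between 387142 and 827885. Other cell types also varied. The 8 skeletal muscle markers summed to 3526 in the female IMQ control and to between 208 and 666 in the other 7 libraries, with no marker at 0, and the 7 dermal fibroblast markers to between 1940 and 7250 in females and between 17163 and 79477 in males. In bulk epidermis, fewer cells of a type and less RNA per cell cannot be told apart.

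Levels were compared between genes in CPM, reads scaled to a common library size, per kilobase of annotated exon, the only scale here on which genes of unequal length can be set side by side. In untreated controls Ldha stood highest of the enzymes at a mean level of 119 CPM per kilobase, followed by aldolase Aldoa at 86.1, pyruvate kinase Pkm at 77.3 and Tpi1 at 72.6. Gapdh, which oxidises glyceraldehyde-3-phosphate, stood at 47.9 and Pgk1, phosphoglycerate kinase, at 47.5, and these neighbours did not differ beyond the spread of their libraries. The lowest levels belonged to the entry and control steps, at 4.11 for Pfkfb3, 8.58 for hexokinase Hk1, 9.51 for phosphofructokinase Pfkl and 10.5 for hexokinase Hk2. Under IMQ Ldha remained highest, at 254 in controls and 247 in labelled knockouts. Enzyme genes have many processed pseudogenes and near-identical copies in mouse, and how reads matching several copies were counted is not given in the sources used here. Eno1b, a copy of the enolase Eno1, is listed separately at 1163 to 2087 normalised counts, so Eno1 (4142 to 7802) is uncertain to that extent.

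**Figure D1:**
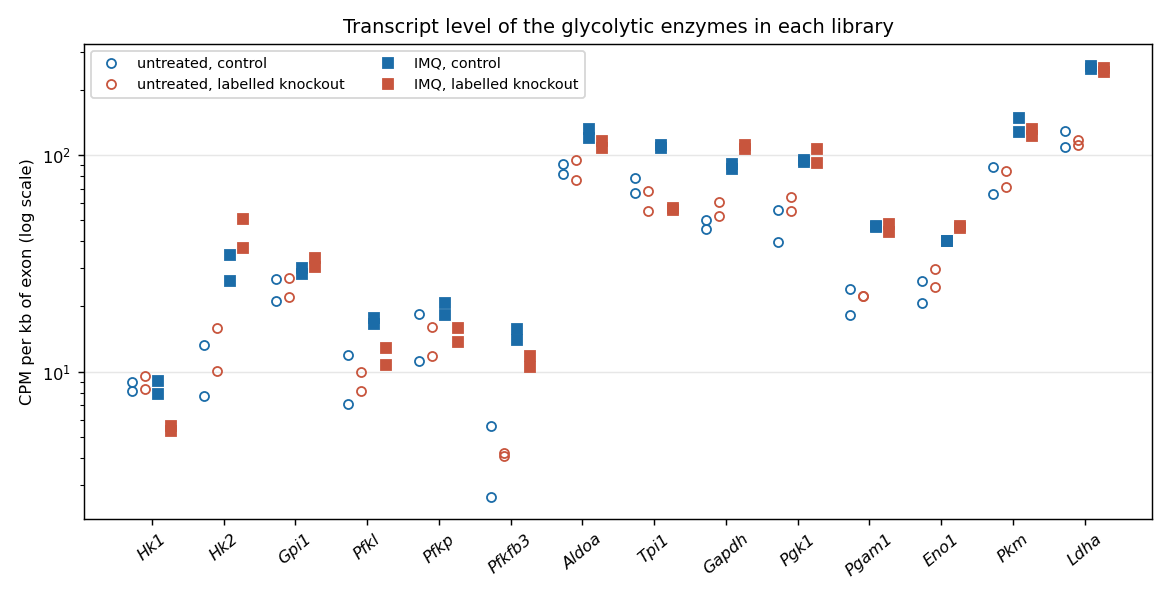
Level of each of the 14 glycolytic enzyme genes, in CPM per kilobase of annotated exon on a log axis, ordered along the pathway. Points are single libraries, coloured by group; Ldha is highest in every group, and only Hk1 among the enzymes has both IMQ labelled knockouts below both untreated labelled knockouts.

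Most glycolytic enzymes stood higher in IMQ-treated than in untreated epidermis of both genotypes. The 2 deposited tables were scaled separately, so these ratios use CPM from the recovered reads, rescaled jointly with TMM factors over the 8 libraries, and no test was made across them. In controls, 12 of the 14 enzymes had both IMQ libraries above both untreated ones and none had both below, where 35.3% of all tested genes lay above without overlap and 32.3% below. Their median ratio was 1.79-fold (0.84 on the log2 scale, 0.59 between the females and 1.08 between the males), against 1.02-fold for all tested genes. In labelled knockouts 11 enzymes lay above and 1, Hk1, below, where 39.9% and 40.1% of all genes did so, and the median was 1.65-fold (0.72 on the log2 scale, 0.64 in females and 0.76 in males). The control ratio also contains the change from Ovol1 +/- to +/+ mice, which cannot be told apart from IMQ, while the labelled knockouts carry one genotype on both sides.

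The largest ratios among the enzymes were those of Pfkfb3 and Hk2, both of the upper pathway. Other genes there had smaller ones. Pfkl had ratios of 1.80 in controls and 1.31 in labelled knockouts, Aldoa of 1.46 and 1.30 and Gpi1 of 1.22 and 1.30. Pfkp had 1.32 and 1.06, with overlapping libraries in both genotypes. Pfkfb3 makes fructose-2,6-bisphosphate, the activator of phosphofructokinase, and was at 42.3 CPM in the female and 19.9 in the male untreated control, and at 118 and 106 CPM in the IMQ controls. In labelled knockouts it went from 31.7 and 31 CPM untreated to 89.6 and 79.4 under IMQ. The groups did not overlap in either genotype, and the ratio of means was 3.56 in controls and 2.67 in labelled knockouts.

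Hk2, the inducible hexokinase that phosphorylates incoming glucose, was at 79.5 and 46.3 CPM in untreated controls and at 156 and 206 under IMQ. Its labelled knockout libraries stood at 94.9 and 60.3 CPM untreated and at 303 and 221 under IMQ, again without overlap. The ratios were 2.86 and 3.36. Its housekeeping relative Hk1 did not share this: 76.8 and 69.6 CPM in untreated controls overlapped 77.0 and 67.6 under IMQ, while in labelled knockouts 81.5 and 70.7 CPM untreated stood above 45.4 and 48.1 under IMQ, a ratio of 0.617.

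The lower pathway, from Gapdh to Ldha, was higher under IMQ in both genotypes. Ldha went from 425 and 362 CPM in untreated controls to 823 and 856 under IMQ, and from 389 and 367 to 834 and 801 in labelled knockouts. Both ratios were close, 2.13 and 2.16, with no overlap of treated and untreated libraries. Pgam1, phosphoglycerate mutase, had ratios of 2.19 and 2.05, Pgk1 of 1.97 and 1.66, Gapdh of 1.84 and 1.92, Pkm of 1.79 and 1.63, and Eno1 of 1.71 and 1.70. Tpi1, the step before Gapdh, had a ratio of 1.51 in controls and 0.912 in labelled knockouts, where its treated and untreated libraries overlapped.

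The 17 genes of the HIF list lay on both sides. In controls 10 had both IMQ libraries above both untreated ones and 2 below, where 35.3% and 32.3% of all genes did so. Their median ratio was 1.44 (0.52 on the log2 scale, 0.20 in females, 0.79 in males and 0.24 on the deposited values). In labelled knockouts 8 lay above and 6 below, near the shares of all genes, 39.9% and 40.1%, with a median of 0.17 on the log2 scale, and this median turns to -0.14 when the deposited values are compared as they stand, a scaling that moves the median of all tested genes to -0.23 in controls and -0.27 in labelled knockouts.

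The genes of the HIF list that stood highest over untreated skin were, in order, Ddit4, P4ha2, Egln3 and Vegfa in controls and Ddit4, Hif1a and Vegfa in labelled knockouts. Ddit4 encodes REDD1, an inhibitor of the growth kinase mTORC1 that hypoxia and other stresses induce. It was at 48.2 and 22.3 CPM in untreated controls and at 177 and 150 under IMQ, and at 31.8 and 26.3 against 113 and 123 CPM in labelled knockouts. The groups lay far apart in both genotypes, with ratios of 4.59 and 4.01.

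Vegfa, the main growth factor for blood vessels, was at 52.5 and 31 CPM in untreated controls and 70.5 and 119 under IMQ. In labelled knockouts it was at 49.7 and 37.9 CPM untreated and 148 and 106 under IMQ. The ratios were 2.25 and 2.87, and the treated libraries were above the untreated ones in both genotypes. Hif1a had ratios of 1.30 and 2.98, and Egln3 of 2.29 and 1.53, without overlap. P4ha2, a collagen prolyl hydroxylase subunit, had ratios of 2.58 and 1.71, and Higd1a, a mitochondrial protein of hypoxic cells, of 1.76 and 1.51. P4ha1, the other prolyl hydroxylase subunit, had ratios of 1.03 and 0.777. Ndrg1, a stress-responsive gene of differentiating epithelia, had log2 ratios of -0.06 and 0.17 with overlapping libraries in both genotypes.

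Several classical HIF targets were lower under IMQ. Pdk1, the kinase that shuts off pyruvate dehydrogenase and so keeps pyruvate out of mitochondria, was at 66.0 and 75.2 CPM in untreated controls and 46.8 and 47.9 under IMQ. In labelled knockouts it was at 58.7 and 57.4 CPM untreated against 19.5 and 30.4 under IMQ. Its ratios were 0.673 and 0.435, without overlap. Mxi1, a repressor that opposes MYC, had ratios of 0.670 and 0.420. Bnip3, which targets mitochondria for removal by mitophagy, overlapped between treated and untreated controls but had a ratio of 0.316 in labelled knockouts, and its relative Bnip3l, also called NIX, had ratios of 1.03 and 0.647.

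**Figure D2:**
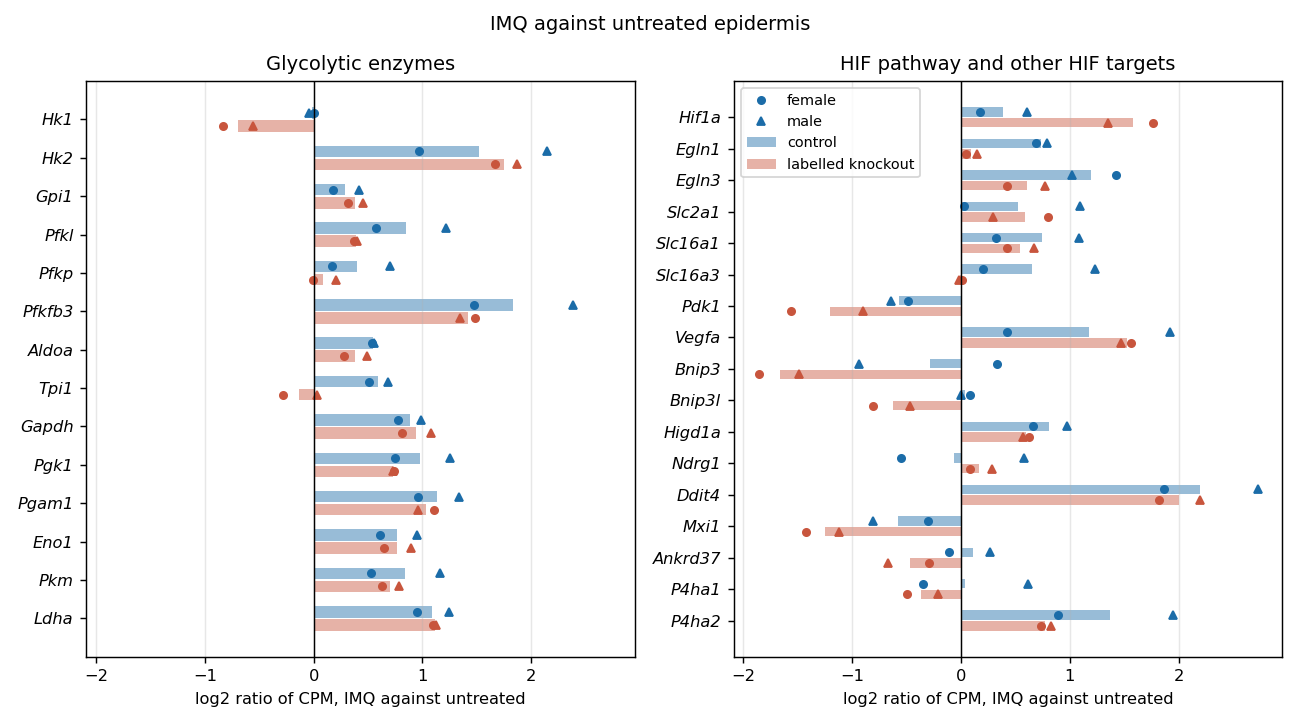
Log2 ratio of mean CPM, IMQ over untreated, for each of the 31 genes, in controls and in labelled knockouts, with the female and male ratios as small marks. The enzymes lie mostly to the right of 0, with medians of 0.84 and 0.72, and the genes of the HIF list lie on both sides.

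In untreated epidermis, none of the 31 genes passed the test between labelled knockouts and controls after adjustment over all genes. The test was limma on the log2 of the deposited normalised counts plus 1, with one spread shared by the 4 groups, and it called 0% of the 14614 genes at an adjusted p under 0.05, while 4.46% had an unadjusted p under 0.05. edgeR called 0 genes and DESeq2 called 89, of which 1, Slc16a1, is among the 31. The enzymes had a median log2 difference of 0.07, with 10 of 14 above 0, and the HIF list a median of -0.02, with 7 of 17 above 0. Groups did not overlap for 4 genes that were higher in labelled knockouts (Gapdh, Pgk1, Slc16a1, Ankrd37) and 3 that were lower (Hif1a, Pdk1, Bnip3l), where 17.4% and 16.4% of all genes did so.

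Slc16a1 stood apart from the other 30 in size. It encodes the monocarboxylate transporter MCT1, which carries lactate and pyruvate across the cell membrane. Its normalised counts were 2052 and 1937 in untreated controls and 4698 and 3818 in untreated labelled knockouts, and 2098 and 3424 against 5145 and 4889 under IMQ. Labelled knockouts were above controls in both treatments with no overlap, by 1.09 ± 0.22 on the log2 scale (SE) untreated and 0.90 ± 0.22 under IMQ. The adjusted p was 0.364 untreated and 0.0978 under IMQ in limma, and 0.00351 and 0.00664 in DESeq2, with ranges over the 20 alternatives tried of 0.00351 to 1.0 and 0.00664 to 0.401. The difference between the 2 effects was -0.18 ± 0.31 (adjusted p = 0.850 in limma).

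**Figure D3:**
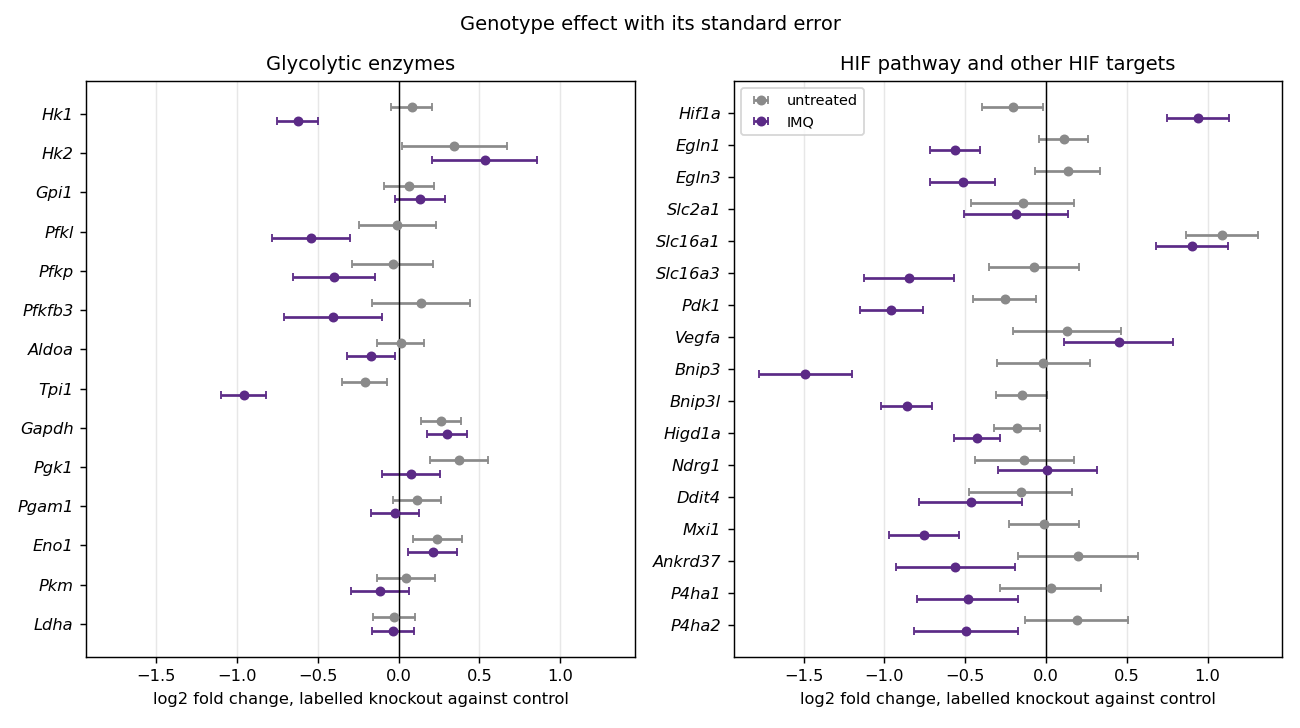
Log2 difference of normalised counts, labelled knockout minus control, for each of the 31 genes in untreated and in IMQ-treated epidermis, with bars of 1 standard error from limma. Under IMQ 22 of the 31 points lie below 0, and Tpi1 is the one with an adjusted p under 0.05.

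Under IMQ, 1 of the 31 genes, Tpi1, passed the test between genotypes, where 0.438% of all tested genes did, 0.157% higher and 0.281% lower in labelled knockouts. Tpi1 interconverts the 2 triose phosphates made by aldolase, so that both continue down the pathway. It is encoded at chr6:124810586-124814296 on the minus strand of GRCm38. Its normalised counts were 9352 in the female and 9122 in the male IMQ control and 4748 and 4756 in the labelled knockouts, while untreated libraries stood at 8060 and 6827 against 7082 and 5800. Under IMQ the groups lay far apart, and in untreated skin they overlapped.

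Tpi1 fell by 0.96 on the log2 scale (SE 0.14, adjusted p = 0.0449 in limma), by nearly the same in females (-0.98) and males (-0.94). The adjusted p was 0.0187 with sex as a replicate block, 0.0550 in edgeR and 5.16e-06 in DESeq2. Over the 20 alternatives it ranged from 5.16e-06 to 0.208 and was under 0.05 in 9. Leaving out any one of the 8 libraries ended the call, with adjusted p between 0.0621 and 0.208, although the log2 difference stayed between -0.98 and -0.94.

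The neighbouring steps did not pass the test. Aldoa, the step before it, differed by -0.17 and Gapdh, the step after it, by 0.30, with adjusted p of 0.522 and 0.220 in limma. The enzymes had a median difference of -0.08 under IMQ, 5 of them above 0 and 9 below. Groups did not overlap for 4 that were higher in labelled knockouts (Hk2, Gpi1, Gapdh, Eno1) and 6 that were lower (Hk1, Pfkl, Pfkp, Pfkfb3, Aldoa, Tpi1), where 26.6% and 26.4% of all genes did so.

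Hexokinases differed in direction. Hk1 was at 2350 and 2082 normalised counts in IMQ controls and 1403 and 1465 in labelled knockouts, a log2 difference of -0.63 ± 0.13 (SE) with an adjusted p of 0.0734 in limma and 0.0439 with sex as a replicate block (range 0.00646 to 0.343). Hk2 was at 4749 and 6351 against 9358 and 6739, a difference of 0.53 ± 0.32 (adjusted p = 0.367). The libraries of both genes were apart, those of Hk2 by a small margin between the males. The phosphofructokinase genes Pfkl and Pfkp differed by -0.54 and -0.40, with adjusted p of 0.241 and 0.383, and the third, Pfkm, by -0.09 with overlap. The regulator Pfkfb3 differed by -0.41 (adjusted p = 0.461) and its relative Pfkfb4 by 0.72 (adjusted p = 0.188). Pfkm and Pfkfb4 belong to the wider list of isozymes and were named after their values were seen. Pkm, Pgk1, Pgam1 and Ldha differed by -0.12 to 0.08 and their groups overlapped.

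The HIF list leaned lower in labelled knockouts under IMQ, with a median log2 difference of -0.49 against -0.01 over all tested genes. Of the 17 genes, 13 were below 0, and groups did not overlap for 11 lower and 2 higher, where 26.4% and 26.6% of all genes did so. None passed the adjusted test in limma or edgeR, and 6 passed in DESeq2 (Hif1a, Slc16a1, Pdk1, Bnip3, Bnip3l and Mxi1), which called 1242 of the 14614 genes. An unadjusted p under 0.05 was found for 10 of the 17, where 22.0% of all genes had one. With sex as a replicate block 3 lower and 1 higher passed, where 1.86% and 0.588% of all genes did.

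Hif1a itself was among the few that were higher. It was at 8677 and 9549 normalised counts in IMQ controls and 20787 and 14657 in labelled knockouts, while the 4 untreated libraries lay between 7157 and 9436. Both IMQ labelled knockouts were above the other 6 libraries, in CPM as well. The log2 difference under IMQ was 0.94 ± 0.19 (SE), 1.26 in females and 0.62 in males. Without any one library the difference lay between 0.69 and 1.19. Its adjusted p was 0.0734 in limma, 0.0430 with sex as a replicate block, 0.0818 in edgeR and 2.96e-04 in DESeq2.

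Egln1 and Egln3, prolyl hydroxylases that mark HIF1A for destruction and are HIF targets themselves, had negative differences that did not pass the test in limma. Egln1 was at 2796 and 2496 normalised counts in IMQ controls and 1897 and 1683 in labelled knockouts, a log2 difference of -0.56 ± 0.15 (adjusted p = 0.114 in limma and 0.0452 with sex as a replicate block, range 0.0452 to 0.367). Egln3 was at 4471 and 5091 against 2966 and 3750, a difference of -0.52 ± 0.20 (adjusted p = 0.198). Neither gene's groups overlapped under IMQ, and both overlapped untreated, where Egln1 differed by 0.11 and Egln3 by 0.13.

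The transporters of glucose and lactate differed among themselves. Slc2a1, the glucose transporter GLUT1, was at 6345 and 7960 normalised counts in IMQ controls and 8231 and 4748 in labelled knockouts, overlapping, with a difference of -0.18 ± 0.32. Slc16a3, the lactate exporter MCT4, was at 461 and 523 against 267 and 277, a difference of -0.85 ± 0.28 (adjusted p = 0.153), so that its value lay below 0 where that of Slc16a1 lay above. Pdk1 was at 1428 and 1476 in controls and 603 and 926 in labelled knockouts. Its difference was -0.96 ± 0.19, with -1.24 in females and -0.67 in males. Without any one library it lay between -1.27 and -0.65. The adjusted p of Pdk1 was 0.0742 in limma, 0.0430 with sex as a replicate block, 0.0873 in edgeR and 0.00260 in DESeq2.

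The mitophagy receptors had some of the largest differences. Bnip3 was at 566 and 337 normalised counts in IMQ controls and 136 and 176 in labelled knockouts, and at 547 to 797 in the 4 untreated libraries. Its log2 difference was -1.49 ± 0.29 (SE), the largest in size of the 31, with -2.05 in females and -0.93 in males. Without any one library it lay between -1.86 and -1.12. The adjusted p of Bnip3 was 0.0714 in limma, 0.0546 with sex as a replicate block, 0.0818 in edgeR and 2.74e-04 in DESeq2. Bnip3l was at 5127 and 5691 against 2594 and 3406, and between 5589 and 6857 in untreated skin. It differed by -0.86 ± 0.16, with -0.98 in females and -0.74 in males, and by -1.06 to -0.665 without any one library. The adjusted p of Bnip3l was 0.0714 in limma, 0.0219 with the block, 0.080 in edgeR and 6.36e-04 in DESeq2. For both genes the IMQ labelled knockouts were below the other 6 libraries, in CPM as well.

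Mxi1 also had both IMQ labelled knockouts below the other 6 libraries. It was at 2236 and 2165 normalised counts in IMQ controls and 1075 and 1577 in labelled knockouts. The difference was -0.76 ± 0.22 (adjusted p = 0.125 in limma), with -1.06 in females and -0.46 in males. Ddit4 was at 5395 and 4621 against 3500 and 3733, a difference of -0.47 ± 0.32, and so stood lower in labelled knockouts although it was high over untreated skin in both genotypes. Vegfa was at 2152 and 3662 against 4559 and 3224, with overlap, and differed by 0.45 ± 0.34. Higd1a, P4ha1 and P4ha2 differed by -0.43, -0.49 and -0.49 without overlap, and Ndrg1 by 0.01 with overlap. Ankrd37, a small ankyrin-repeat protein, was listed at only 29.5 to 70.8 normalised counts in all libraries and differed by -0.56 ± 0.37.

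**Figure D4:**
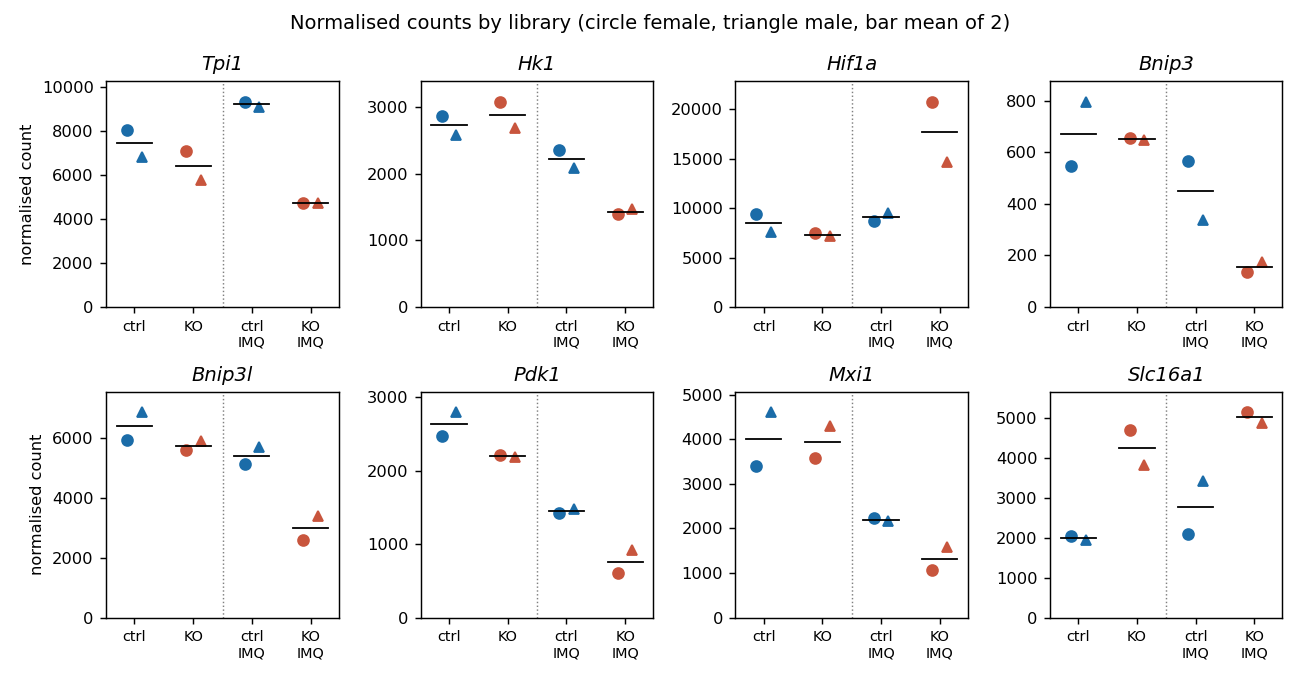
Deposited normalised counts of selected genes in each of the 8 libraries, circles for females, triangles for males and a bar at the mean of each pair, with axes from 0. Untreated and IMQ libraries were scaled in separate tables; within IMQ both labelled knockouts of Hif1a lie above and both of Tpi1, Hk1, Pdk1, Bnip3 and Bnip3l below the controls.

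The difference between the genotype effect under IMQ and that in untreated skin was tested directly and passed for none of the 31 genes. limma called 0% of all genes, 10.1% had an unadjusted p under 0.05, edgeR called 0 genes and DESeq2 called 99, 1 of them Hif1a. Among the 31, 8 had an unadjusted p under 0.05, 1 higher and 7 lower, where 4.05% and 6.02% of all genes did. Hif1a had the largest positive difference, 1.14 ± 0.27 (SE), and Bnip3 the largest negative one, -1.47 ± 0.41. Tpi1 differed by -0.75 ± 0.20, Hk1 by -0.71 ± 0.18, Egln1 by -0.67 ± 0.22, Bnip3l by -0.71 ± 0.22, Pdk1 by -0.70 ± 0.28 and Mxi1 by -0.74 ± 0.31. Each of these 8 had an adjusted p between 0.476 and 0.484 in limma. Because the controls were +/- untreated and +/+ under IMQ, this difference also holds the control genotype.

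Further genes of the same pathways were taken from lists. Of 18 other glycolysis isozymes, transporters and regulators tested, none passed between genotypes in either treatment in limma or edgeR. DESeq2 called 2 under IMQ (Pfkfb2 and Slc2a12), where it called 1242 of the 14614 genes. In limma 0 had an unadjusted p under 0.05 untreated and 5 under IMQ, where 4.46% and 22.0% of all genes did. Under IMQ 2 were above and 16 below 0, with a median of -0.37, which was -0.77 between the females and 0.14 between the males. The female IMQ control, high in muscle markers, was also high in the muscle isozymes Eno3 (367 normalised counts against 118 in the male control) and Pgam2 (197 against 55.9), and the part of muscle RNA in that median was not tested. Pfkfb2, a relative of Pfkfb3, was at 809 and 770 normalised counts in IMQ controls and 464 and 509 in labelled knockouts, a difference of -0.70 ± 0.12 (adjusted p = 0.0646 in limma, 0.043 with the block). Slc2a12, the glucose transporter GLUT12, was lower under IMQ than untreated, with log2 ratios of CPM of -2.27 in controls and -3.79 in labelled knockouts and no overlap in either.

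Among 13 other HIF subunits and regulators none passed in limma or edgeR, and Cited2 was 1 of the 1242 genes that DESeq2 called under IMQ. In limma 1 had an unadjusted p under 0.05 untreated and 2 under IMQ, where 4.46% and 22.0% of all genes did. Cited2, which competes with HIF1A for its coactivator, was at 2365 and 1915 normalised counts in IMQ controls and 769 and 1339 in labelled knockouts, a difference of -1.07 ± 0.26 (adjusted p = 0.0969 in limma). Egln2, the third prolyl hydroxylase, was at 3601 and 3393 normalised counts in IMQ controls and 3863 and 4200 in labelled knockouts, a positive difference of 0.20 ± 0.11 without overlap (adjusted p = 0.320), unlike Egln1 and Egln3 in sign. Epas1, which encodes HIF2A, was higher in untreated labelled knockouts by 0.69 ± 0.23 (adjusted p = 0.905).

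Among 28 other HIF targets tested, Zfp395 was lower in labelled knockouts under IMQ by -1.14 ± 0.24 (adjusted p = 0.079 in limma), and Adm, the vasodilator adrenomedullin, was lower in untreated labelled knockouts by -1.13 ± 0.41 (adjusted p = 0.976). The median of these targets under IMQ was -0.13, with 9 above and 19 below 0. In untreated skin it was 0.12, with 16 above and 12 below 0. In limma 2 higher and 1 lower had an unadjusted p under 0.05 untreated, where 4.46% of all genes had one. Under IMQ 2 higher and 4 lower had one, where 22.0% of all genes did. Hilpda, given under other observations, was higher in both treatments.

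Markers of cell state and of other cells were also compared between the same IMQ groups. The basal keratinocyte markers summed to 603361 and 609958 normalised counts in IMQ controls and 466633 and 546552 in labelled knockouts. The suprabasal sums overlapped, at 506207 and 739723 against 387142 and 567267. The 5 stress keratin and envelope markers, such as Krt6a and Krt16, summed to 136810 and 209699 normalised counts in IMQ controls and 402855 and 307680 in labelled knockouts, and to between 85680 and 111373 in untreated skin. The 4 listed neutrophil markers summed to 612 and 1194 in IMQ controls and 3593 and 1368 in labelled knockouts, with none at 0 under IMQ, and the 6 endothelial markers to 763 and 259 against 286 and 417. The 7 dermal fibroblast markers summed to 7250 in the female and 79477 in the male IMQ control. In labelled knockouts they summed to 1940 in the female and 50353 in the male. The 6 macrophage and monocyte markers summed to 6184 and 4002 against 3161 and 3910. Under IMQ 5 of these 6 had an unadjusted p under 0.05 in limma, where 22.0% of all genes did. So did 3 stress, 2 suprabasal, 2 endothelial, 1 basal, 1 neutrophil and 1 dermal fibroblast marker. None of these lists had a member that passed the adjusted test. Their part in the differences of Tpi1, Hif1a, Bnip3 and the others was not tested. The female IMQ control, which was high in muscle markers, had 9352 Tpi1 counts and the male control had 9122.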

How the data were processed

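Libraries were made with a stranded poly(A) kit and sequenced as 100-base pairs, per the labels' protocols. Per the submitters' processing notes, reads were handled with STAR 2.5.2a and Trimmomatic 0.35 on build mm10, and R 3.6.1 with DESeq2 1.24.0 was used. Which tool counted reads, with which strand and multi-mapping settings, is not given in the sources used here. Deposited values are a signal, never negative, of gene counts divided by a size factor per library, and the authors scaled the untreated and the IMQ table separately. Every value was a whole multiple of its library's step within 0.001 read, which gave back reads.

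The 31 genes and all lists were chosen with earlier results of these data known. Genotypes were compared within each table with limma 3.58.1 (R 4.3.3) on log2(value + 1), trend and robust moderation, 4 group means over 8 libraries with 4 residual degrees of freedom, and Benjamini-Hochberg adjustment at 0.05 over the 14614 genes with a mean of at least 10 in either table. An added value of 1 understates the change of low genes. IMQ was set against untreated only as ratios of mean CPM plus 0.5 with TMM factors (edgeR 4.0.16), untested. edgeR's quasi-likelihood test and DESeq2 1.42.0 on the recovered reads were alternatives. P-values measure only the spread between these libraries, 1 female and 1 male a group. Replicate numbers are sex: same-sex libraries deviated together in all 6 pairs of groups (correlation 0.145 to 0.463), so sex was also fitted as a replicate block and is given where it changes a call.

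All 31 genes are named. From each wider list the text names called genes, up to 2 with the largest difference among those with an unadjusted p under 0.05, and up to 2 with the largest IMQ ratio without overlap at 1 CPM or more. A result that this rule would name is not reported here. Lengths are exon unions and gene positions from GENCODE vM21 (GRCm38). Motifs were counted in the 250 bases before each RefSeq start, and the 50 bases after it were left out. Tested on simulated data for the untreated comparison, limma recovered 79% of 4-fold and 37% of 2-fold changes among 14397 genes. For the IMQ comparison it recovered 74% and 39% among 14416. Of the calls, 8 of 124 and 18 of 131 were false, and both shares lie above the threshold of 0.05. The simulated libraries were drawn independently and without a sex effect, unlike the real ones, so these rates belong to a simpler setting.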

Additional observations from a re-analysis of the deposited data

How the results depend on the processing

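With 2 libraries a group, counts of calls depended on how the spread was estimated. For untreated genotypes, 0 genes passed in the chosen fit, 5 with an added value of 5, 8 with each table alone, 8 with the replicate block, 6 in edgeR with the block, 89 in DESeq2, 15 at a threshold of 0.10, and 0 to 2 without one library; of the HIF list, 1 passed in DESeq2. For IMQ genotypes, 64 passed, 0 with plain moderation and 0 with each table alone, 358 with the replicate block, 292 in edgeR with the block, 1242 in DESeq2, 633 at 0.10, and 0 to 299 without one library (0 without any untreated library, 5 and 49 without the female and male IMQ control, 3 and 299 without the female and male IMQ labelled knockout). Of the enzymes, 1 passed under IMQ, 0 with plain moderation, each table alone or edgeR, 2 with the replicate block, in DESeq2 or at 0.10, and 0 without any one library. Of the HIF list, 0 passed, 4 with the replicate block, 3 in edgeR with it, 6 in DESeq2, 5 at 0.10, and 0 to 3 without one library. The difference of effects gave 0, and 99 in DESeq2, 1 of them in the HIF list. The cause of these shifts was not tested. The IMQ ratio of the enzymes in labelled knockouts (median 0.72) was 0.61 with library totals and 0.41 with deposited values, and that of the HIF list (0.17) reversed to -0.14. Signs changed in 20 of 1178 member values in the genotype comparisons, none of them called and leave-outs not counted, and in 10 of 248 IMQ ratios. Without one library, the members above 0 numbered 9 to 23 untreated (17 with all), 7 to 12 under IMQ (9) and 1 to 15 for the difference (6). Depth of 28600596 to 43080052 reads limits only the lowest genes, such as Ankrd37.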

Other observations

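Genes around glycolysis were counted in 3 further lists, with the same tests. Of 13 genes of the pyruvate dehydrogenase complex, its kinases and phosphatases and the mitochondrial pyruvate carrier, none passed between genotypes in limma or edgeR. Dld was 1 of the 1242 genes that DESeq2 called under IMQ. In limma 0 had an unadjusted p under 0.05 untreated and 5 under IMQ, where 4.46% and 22.0% of all genes did. Under IMQ 5 were above and 8 below 0, with a median of -0.07. In untreated skin 12 of the 13 were above 0 in labelled knockouts, 7 of them without overlap, where 17.4% of all genes were, with a median of 0.17. Dld, the dihydrolipoamide dehydrogenase subunit, was at 4021 and 3778 normalised counts in IMQ controls and 5234 and 4747 in labelled knockouts, a difference of 0.35 ± 0.11 (SE, adjusted p = 0.137 in limma). The kinase gene Pdk3 was at 842 and 876 against 550 and 670, a difference of -0.50 ± 0.14 (adjusted p = 0.125). Pdk2, another of these kinases, was at 412 to 653 in untreated skin and at 91.5 to 150 under IMQ, with log2 ratios of CPM of -1.34 in controls and -2.06 in labelled knockouts.

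The 8 pentose phosphate genes gave no call in limma or edgeR. DESeq2 called 1 untreated (H6pd) and 1 under IMQ (Rpe), where it called 89 and 1242 of all genes. In limma 1 had an unadjusted p under 0.05 untreated and 2 under IMQ, where 4.46% and 22.0% of all genes did. H6pd, the hexose-6-phosphate dehydrogenase of the endoplasmic reticulum, was at 103 and 61.2 normalised counts in untreated controls and 282 and 188 in labelled knockouts, a difference of 1.52 ± 0.36 (adjusted p = 0.483 in limma), and at 77.1 to 128 in the 4 IMQ libraries, where it differed by 0.02 ± 0.36. G6pdx, the entry enzyme, differed by -0.33 ± 0.13 under IMQ (adjusted p = 0.199).

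Of 13 genes of glycogen and gluconeogenesis tested, 8 lay below without overlap under IMQ in labelled knockouts and 2 above, where 40.1% and 39.9% of all genes did so, with a median log2 ratio of -0.78. In controls 4 lay below and 1 above, where 32.3% and 35.3% of all genes did so, with a median of -0.34. Pygb, a glycogen phosphorylase, had log2 ratios of -0.80 and -1.35, and Gaa, the lysosomal glucosidase, of -0.82 and -0.89. Between genotypes none passed in limma, edgeR or DESeq2. In limma 1 had an unadjusted p under 0.05 untreated and 3 under IMQ, where 4.46% and 22.0% of all genes did. Pgm1, which links glycogen to glycolysis, had log2 ratios of 0.43 and 1.08 and stood at 541 and 605 normalised counts in IMQ controls against 869 and 918 in labelled knockouts (0.64 ± 0.21, adjusted p = 0.152 in limma).

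Hilpda, a lipid droplet protein that hypoxia induces, was singled out after its values were seen. It was at 575 and 434 normalised counts in untreated controls and 1129 and 788 in labelled knockouts, and at 794 and 695 against 1757 and 1360 under IMQ. Both treatments showed it higher without overlap, by 0.92 ± 0.23 and 1.06 ± 0.23, with adjusted p of 0.537 and 0.0818 in limma and 0.134 and 0.019 with the replicate block.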
